A study of Homo sapiens with 3 samples.

Results

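Tubulins and microtubule regulators were followed in the drug sensitive line SupB15 and its multidrug resistant derivative SupB15-MR, because microtubules are what vincristine, a standard drug of childhood acute lymphoblastic leukemia (ALL), acts on. All probe sets that the array's annotation gives to TUBB, TUBB2A, TUBB2B, TUBB3, TUBB4B, TUBB6, TUBA1A, TUBA4A, MAP4 or STMN1 alone were taken, 21 of the 54675 probe sets of the array and 10 of its 19752 genes with a probe set of their own. SupB15-MR (2 arrays) are subpopulations of SupB15 that survived mitoxantrone in medium conditioned by the stromal line HS-5 and were then kept without drug; the label of replicate 2 names the clone MR5. SupB15 (1 array) is a BCR-ABL-positive B-precursor ALL line. The paper describes the SupB15 cells of its expression comparison as cultured normally, and states normal medium for MR cells in other assays. Neither SupB15 nor SupB15-MR was selected with vincristine. The drugs that the paper describes testing on SupB15-MR do not include vincristine, which it tested on SupB15 in normal or conditioned medium. Gene expression is given as log2 values after robust multi-array averaging (RMA), so that a difference of 1 is a 2-fold change.

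Microtubules are hollow polymers of alpha and beta tubulin dimers that grow and shrink at their ends and build the mitotic spindle. Vincristine binds beta tubulin and blocks the addition of dimers. Proteins such as MAP4 bind along the lattice and stabilise it, whereas stathmin (STMN1), also known as oncoprotein 18 and abundant in leukemic blasts, holds free dimers and favours shrinkage. Each level is an average over the RNA of a culture, in which fewer cells with a transcript and less of it per cell cannot be told apart.

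TUBB2A and TUBA4A were the members with only 1 probe set of their own that differed 2-fold or more between SupB15-MR and SupB15. They did so in opposite directions, and their promoter sequences are shown for that reason. The windows run from 250 bases before to 50 bases after the RefSeq start site in GRCh38.p14. They are written 5′ to 3′ on the strand of the gene, with capitals for GGGCGG or CCGCCC (the GC box on either strand) and for TATAAA or TTTATA (the TATA box); CCAAT and ATTGG were also searched. These motifs do not overlap in either window.
TUBB2A, chr6:3157495-3157794, minus strand: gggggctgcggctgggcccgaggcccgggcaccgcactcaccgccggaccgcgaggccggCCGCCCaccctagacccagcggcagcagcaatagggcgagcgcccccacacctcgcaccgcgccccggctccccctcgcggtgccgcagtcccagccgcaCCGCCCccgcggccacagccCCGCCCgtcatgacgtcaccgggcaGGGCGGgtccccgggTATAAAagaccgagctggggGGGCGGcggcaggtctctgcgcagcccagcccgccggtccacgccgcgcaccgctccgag
TUBA4A, chr2:219253869-219254168, minus strand: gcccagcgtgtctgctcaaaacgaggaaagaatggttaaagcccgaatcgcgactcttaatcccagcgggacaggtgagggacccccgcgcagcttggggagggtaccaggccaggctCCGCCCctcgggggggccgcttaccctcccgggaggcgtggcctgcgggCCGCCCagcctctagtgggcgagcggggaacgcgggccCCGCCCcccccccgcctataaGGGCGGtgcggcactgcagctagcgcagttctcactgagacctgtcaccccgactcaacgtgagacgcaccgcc
The TUBB2A window holds 5 GC boxes and a TATAAA that begins 30 bases before the start, and the TUBA4A window holds 4 GC boxes and no TATAAA. Neither holds a CCAAT or an ATTGG. Of 35116 human promoter windows of this length, 45.0% hold GGGCGG or CCGCCC, 11.5% TATAAA or TTTATA and 34.6% CCAAT or ATTGG. All 10 members had a window, with 16 start sites, and TUBB2A was the 1 member with TATAAA or TTTATA in a window. Only these exact letters were searched, so looser forms of the TATA box in the other windows were not counted. These matches are letters in a window and say nothing of binding.

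The arrays themselves set what can be compared. The values of 23368 probe sets (42.7%) were identical in both SupB15-MR arrays, and SupB15 has no replicate, so the spread came from the SupB15-MR arrays alone. Array medians were 5.27 and 5.28 in SupB15-MR and 5.08 in SupB15, a shift of 0.19. The actin control, as the 3′ minus the 5′ probe set, was at 2.59 and 2.43 in SupB15-MR and at 0.80 in SupB15, while that of GAPDH was at -0.09 and -0.11 in SupB15-MR and at 0.10 in SupB15. Of 11 B-precursor markers 10 had a probe set of their own. All of these but CD34 (3.46 in SupB15-MR replicate 2) were above the low-value threshold of 3.47 in all arrays. The summed log2 value of the 10 was 91.6 to 92.5 in SupB15-MR and 107.3 in SupB15. Of these 10, limma called VPREB1 (-6.41), CD34 (-6.38) and IGLL1 (-2.31) lower in SupB15-MR and MME (1.54) higher. EBF1 (-1.50) was lower by 2-fold or more in each SupB15-MR array and was not called. Its 4 probe sets ran between -2.93 and 1.94, with 2 lower and 1 higher by 2-fold or more. CD22, CD79B, PAX5 and DNTT were within 2-fold on the most intense probe set. Each of them had at least 1 other probe set higher by 2-fold or more in both SupB15-MR arrays, and none lower by as much. The 7 stromal markers summed to 33.1 to 33.6 in SupB15-MR and 37.8 in SupB15, a gap carried mainly by THY1 (-3.22) and DCN (-1.10), neither called, with the others between -0.15 and 0.10.

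Across the 21 probe sets, differences between SupB15-MR and SupB15 went both ways and were mostly under 2-fold. In both SupB15-MR arrays 11 probe sets were above SupB15 and 8 were below, and 2 equalled SupB15 in at least 1 array. A gap of 2-fold or more in each SupB15-MR array was seen on 6 of them, 2 higher and 4 lower, against 33.2% of all 46034 probe sets kept (18.3% higher and 15.0% lower). Of the 20 that passed the filter on low values, 1 was called by limma (adjusted p up to 0.05 by Benjamini-Hochberg, with a change of 2-fold or more), lower in SupB15-MR, against 22.8% of all probe sets (13.1% higher and 9.71% lower). At an unadjusted p under 0.05, 12 of the 20 passed (against 60.6% of all probe sets), 6 of them with identical SupB15-MR values. The median difference of the 20 was 0.16, against 0 over all kept, and their median absolute difference was 0.58, against 0.65. The share of changed probe sets in these genes was thus not above that of the array. An exact permutation of 1 array against 2 has 3 splits and cannot go below p = 0.333.

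**Figure D1:**
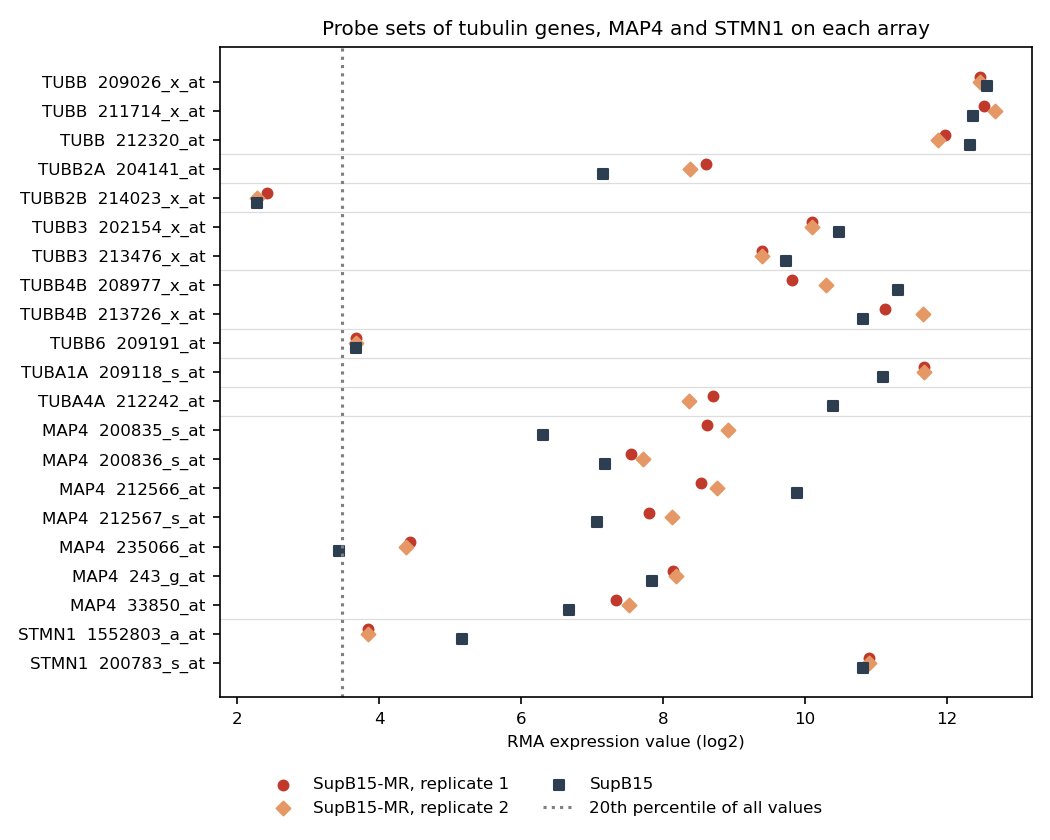
RMA expression values (log2) of each probe set of the tubulin genes, MAP4 and STMN1 on each array, with SupB15-MR replicates 1 and 2 as circles and diamonds and SupB15 as squares; the dotted line is the 20th percentile of all values (3.47). Both SupB15-MR symbols of TUBA4A lie left of the square, at 8.70 and 8.37 against 10.39, and those of TUBB2A right of it, at 8.60 and 8.38 against 7.15.

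Among the beta tubulins, which carry the vincristine site, TUBB2A stood higher in SupB15-MR on the probe set of that gene alone. The probe sets of TUBB, the common form of dividing cells, moved little. TUBB2A (204141_at) had values of 8.60 and 8.38 in SupB15-MR and 7.15 in SupB15. Both SupB15-MR arrays lay above SupB15, by 1.45 and 1.22, and the spread between them was far smaller than that gap. The mean difference was 1.34 (standard error 0.170), a 2.53-fold higher level, and was not called (adjusted p = 0.0773 from limma). A probe set shared by TUBB2A and TUBB2B (209372_x_at) did not show this rise. It was at 7.52 in both SupB15-MR arrays and 7.51 in SupB15. TUBB2B, the neighbour of TUBB2A on chromosome 6 and a form best known from developing neurons, did not pass the filter. On its own probe set (214023_x_at) it was at 2.42 and 2.27 in SupB15-MR and 2.27 in SupB15, at the low end of the array.

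TUBB had 3 probe sets, and they did not share a direction. On 211714_x_at it was at 12.52 and 12.68 in SupB15-MR and 12.37 in SupB15, a difference of 0.23 (adjusted p = 0.323 from limma). On 212320_at it was at 11.97 and 11.88 in SupB15-MR and 12.32 in SupB15, a difference of -0.40 (adjusted p = 0.104 from limma). The third, 209026_x_at, was at 12.47 in both SupB15-MR arrays and 12.56 in SupB15. The SupB15-MR means of all 3 lay within 1.32-fold of SupB15, and the mean difference over the 3 was -0.09.

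TUBB3, the beta tubulin of neurons, whose abundance in tumours has been tied to poor response to tubulin-binding drugs, was slightly lower in SupB15-MR on both of its probe sets. On 202154_x_at it was at 10.09 in both SupB15-MR arrays and 10.47 in SupB15, a difference of -0.38, and on 213476_x_at at 9.39 in both and 9.74 in SupB15, a difference of -0.35. Both stayed under 2-fold and were not called, although their adjusted p from limma was 0.000852 and 0.000918. Such small p-values go with the identical values of the SupB15-MR arrays; with a variance prior taken from probe sets that differ between them, limma gave adjusted p of 0.115 and 0.158. Of 7 neuronal markers, ELAVL4 was higher in SupB15-MR on all 4 of its probe sets (8.98 and 9.16 against 4.35 in SupB15 on the most intense) and was the 1 of 6 tested that was called. The summed log2 value of the 7 was 37.6 to 38.0 in SupB15-MR and 32.0 in SupB15, a gap carried mainly by ELAVL4 (4.72). The others lay between -0.71 (SNAP25) and 0.89 (ELAVL3), and NEFL was not above the filter in any array. The part of these marker differences in the beta tubulin values was not tested.

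TUBB4B, a beta tubulin made in most tissues, gave opposite readings on its 2 probe sets. On 208977_x_at it was at 9.82 and 10.29 in SupB15-MR and 11.31 in SupB15, lower by 1.49 and 1.03 in the 2 arrays. The mean difference of -1.26 (standard error 0.353) was not called (adjusted p = 0.173 from limma). On 213726_x_at it was at 11.12 and 11.66 in SupB15-MR and 10.82 in SupB15, a difference of 0.57 (adjusted p = 0.435 from limma). These were also the probe sets on which replicates 1 and 2 of SupB15-MR lay farthest apart among the 21, by 0.47 and 0.54, with replicate 2 the higher on both. TUBB6 (209191_at), a beta tubulin of many non-neuronal tissues, was at 3.68 in all 3 arrays, close to the low-value threshold of 3.47.

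The alpha tubulins, the partners of beta tubulin in the dimer, differed from each other. TUBA4A (212242_at), an alpha tubulin encoded without the C-terminal tyrosine, was at 8.70 and 8.37 in SupB15-MR and 10.39 in SupB15. Both SupB15-MR arrays lay below SupB15, by 1.69 and 2.02, the largest gap downward of any tubulin among the members. The mean difference was -1.86 (standard error 0.249), so that SupB15 had 3.63 times the level of SupB15-MR, and it was not called (adjusted p = 0.0816 from limma). TUBA1A (209118_s_at), best known for its part in brain development, was at 11.68 in both SupB15-MR arrays and 11.10 in SupB15. This difference of 0.58 was under the threshold of 2-fold (adjusted p = 0.000678 from limma, on identical SupB15-MR values). TUBA1A lies between TUBA1B and TUBA1C on chromosome 12, close relatives in sequence with which its probes may share transcripts.

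**Figure D2:**
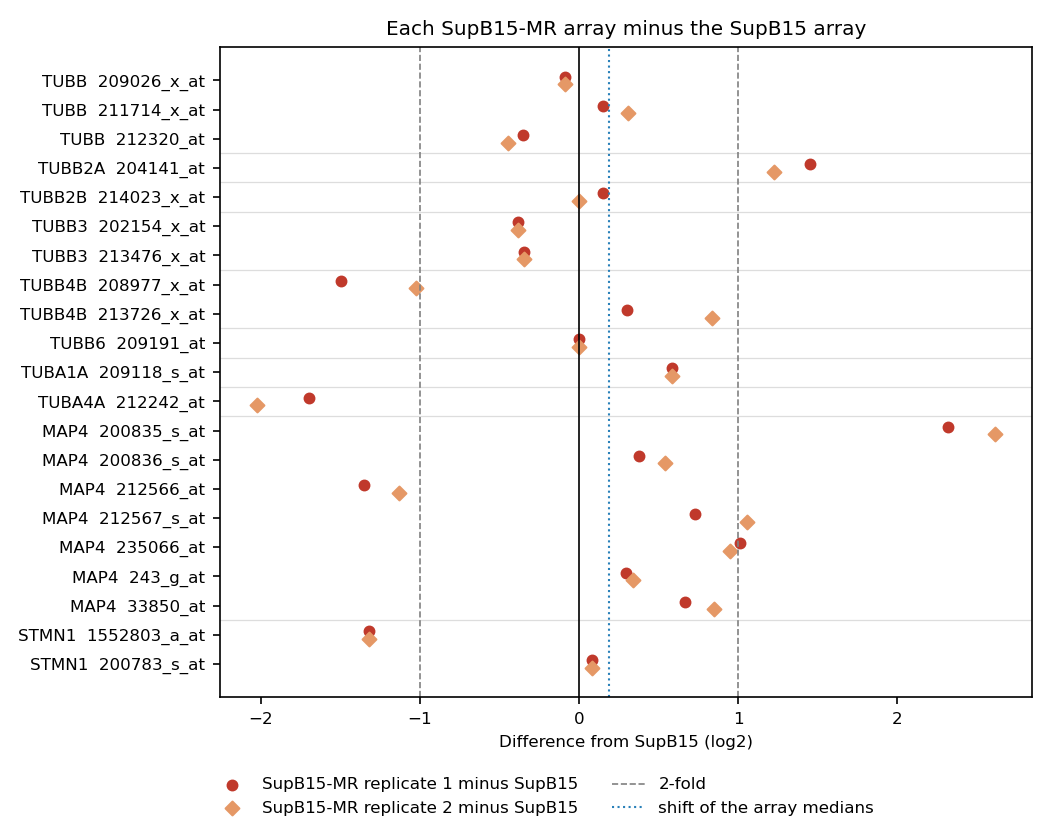
Difference of each SupB15-MR array from the SupB15 array (log2) for each probe set, circles for replicate 1 and diamonds for replicate 2, with dashed lines at 2-fold and a dotted line at the shift of the array medians (0.19). The 7 MAP4 probe sets run between mean differences of -1.24 and 2.46, and TUBB4B and STMN1 each have 1 probe set lower by over 2-fold and 1 above 0 (that of STMN1 was below 0 with median centring).

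MAP4, the main lattice-binding protein of cells other than neurons, was higher in SupB15-MR on 6 of its 7 probe sets and lower on 1. On 200835_s_at it was at 8.62 and 8.91 in SupB15-MR and 6.30 in SupB15. That difference of 2.46 (standard error 0.225), a 5.52-fold higher level and the largest of the 21 probe sets, was not called (adjusted p = 0.0559 from limma). On 212566_at it was at 8.54 and 8.76 in SupB15-MR and 9.89 in SupB15, a difference of -1.24 (standard error 0.166, adjusted p = 0.0814 from limma).
The other 5 were all higher in both SupB15-MR arrays, with mean differences of 0.32 to 0.98. Among these, 235066_at was at 4.44 and 4.38 in SupB15-MR and 3.43 in SupB15, a difference of 0.98 (adjusted p = 0.0275 from limma) that fell just short of 2-fold. Its SupB15 value was under the low-value threshold of 3.47, so this probe set passed the filter only through the SupB15-MR arrays. Also near 2-fold was 212567_s_at, at 7.81 and 8.13 in SupB15-MR and 7.07 in SupB15, a difference of 0.89. The mean over the 7 was 0.66 and the median 0.76, while the probe set with the highest mean intensity is the 1 that was lower. A single probe set for this gene would thus give either sign. Of 9014 genes with several kept probe sets, 9.46% had at least 1 that was 2-fold higher and 1 that was 2-fold lower, and of the 221 with as many probe sets as MAP4 or more, 42.1% did.

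STMN1 held the only probe set of these genes that was called, and its other probe set did not show the difference. On 1552803_a_at it was at 3.85 in both SupB15-MR arrays and 5.16 in SupB15. It fell in SupB15-MR by 1.32 on the log2 scale, with SupB15 at 2.49 times the level (adjusted p = 0.000645 from limma, on identical SupB15-MR values). The SupB15-MR values lie close to the low-value threshold. With the variance prior from differing probe sets, limma gave an adjusted p of 1.45e-05. On 200783_s_at it was at 10.90 in both SupB15-MR arrays and 10.81 in SupB15, a difference of 0.08 that turned to -0.11 with each array centred on its median. Affymetrix marks with _a_at a probe set for several transcripts of 1 gene, with _s_at 1 whose probes all match several transcripts and with _x_at 1 with probes that also match other sequences. Of the 21 probe sets 7 are _x_at, all of them of beta tubulins, with differences of -1.26 to 0.57. Both probe sets of TUBB3 are among these, and the part of other transcripts in the TUBB3 values was not tested. The part of cross-matching probes, or of the difference in the actin control given above, in the disagreements within TUBB4B, MAP4 and STMN1 was not tested.

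Between the 2 SupB15-MR arrays, 7 of the 21 probe sets had identical values (33.3%, against 39.7% of all kept). Of the 14 that differed, replicate 2 was higher on 9 and lower on 5. Their median absolute difference was 0.20, against 0.15 over all kept probe sets that differed.

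**Figure D3:**
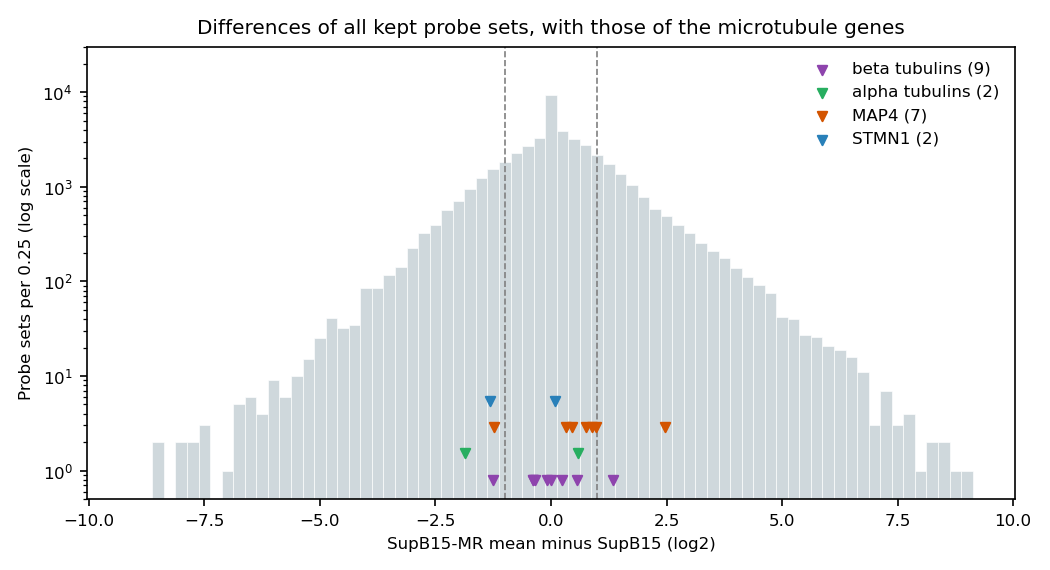
Histogram of the SupB15-MR mean minus SupB15 (log2) over the 46034 kept probe sets, counts on a log scale, with triangles for the 9 beta tubulin, 2 alpha tubulin, 7 MAP4 and 2 STMN1 probe sets that were kept (their height only separates the groups). The triangles lie between -1.86 and 2.46, within the bulk of the distribution, with dashed lines at 2-fold.

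The other genes of microtubule biology were read from 11 lists, each gene by its most intense probe set. Of 118 genes listed, 110 had a probe set of their own and 101 were tested. Of these, 9 rose (8.91%), 10 fell (9.9%) and 82 were not called, against 11.8% higher and 9.05% lower of all 17512 genes tested. The median difference was 0 in both. Counted without a test, 16 were 2-fold or more higher in each SupB15-MR array and 18 were lower by as much. Of all 17512 genes, 16.2% were higher and 13.9% lower by as much.

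Both other beta tubulins with a probe set of their own rose in SupB15-MR. TUBB4A, a beta tubulin of the brain and of myelinating cells, was at 10.19 and 10.11 in SupB15-MR and 5.03 in SupB15. It rose by 5.12 on the only probe set of that gene, the largest difference among the 101 listed genes tested (standard error 0.0554, adjusted p = 0.00592 by limma). TUBB1, the beta tubulin of platelets and megakaryocytes, was at 5.18 in both SupB15-MR arrays and 3.81 in SupB15. This was a rise of 1.38 (adjusted p = 0.000645 from limma, on identical SupB15-MR values), with 0.71 on its other probe set. Of the other alpha tubulins limma called 0 of 3 (1 at an unadjusted p under 0.05, 0 with the prior from differing probe sets). TUBA1B, the common alpha tubulin of dividing cells, was at 13.68 and 13.70 in SupB15-MR and 13.61 in SupB15, with a range of -0.34 to 1.20 over its 6 probe sets.

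Of 12 genes of the gamma, delta and epsilon tubulins and the gamma tubulin ring complex, which nucleates microtubules at the centrosome, 3 fell and 0 rose. TUBE1 (epsilon tubulin, a centriole component) was at 5.62 and 5.59 in SupB15-MR and 9.24 in SupB15, a difference of -3.64, whereas its other probe set had 3.46. TUBGCP3, a subunit of the ring, was at 7.61 and 7.64 in SupB15-MR and 10.22 in SupB15 (-2.60), with 1 of its 3 probe sets at 1.03. TUBG1, gamma tubulin itself, was at 6.74 and 6.80 in SupB15-MR and 9.05 in SupB15 (-2.28, adjusted p = 0.0124 from limma) on its only probe set; it was named after its values had been seen. Among 12 tubulin folding cofactors and prefoldin subunits, which fold new tubulin and join the dimer, 2 fell and 0 rose. TBCA, a beta tubulin chaperone, was at 10.72 and 10.65 in SupB15-MR and 12.09 in SupB15 (-1.40), and PFDN4, a prefoldin subunit, at 7.66 and 7.69 in SupB15-MR and 8.74 in SupB15 (-1.07; its 3 probe sets averaged -0.46). The list's median was -0.84.

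Proteins that bind the polymer went both ways. Of 15 other lattice-binding proteins 2 rose and 0 fell: MAP7D3, a kinesin-linked binder, by 1.63 and EML2 by 1.01. The probe sets of MAP7D3 ran between -0.09 and 1.63 (mean 0.59 over 3) and those of EML2 between -0.44 and 1.34 (mean 0.65 over 4). Of 14 genes listed under plus-end proteins, a list that also holds the spindle protein CKAP2, 1 rose and 1 fell. CLIP1, which tracks growing ends, was at 9.51 and 9.29 in SupB15-MR and 5.36 in SupB15 (4.05, adjusted p = 0.0255 from limma), but its 6 probe sets were split, with 2 higher and 2 lower by 2-fold or more. CKAP2, a spindle protein of dividing cells, had a difference of -1.95, with 2 of its 3 probe sets lower by 2-fold or more. KATNAL1, a katanin-like severing enzyme, rose by 1.48 on 1 of 2 probe sets, with -0.01 on the other, and was the 1 of 5 severing enzymes called. Of 3 other stathmins limma called 0 (3 at an unadjusted p under 0.05, 1 with the prior from differing probe sets), with STMN3 at 7.98 and 7.81 in SupB15-MR and 6.62 in SupB15 (adjusted p = 0.0593 from limma).

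Of 25 enzymes that modify tubulin after it is made, 3 rose and 4 fell. TTLL5, a glutamylase, was at 8.38 and 8.62 in SupB15-MR and 6.09 in SupB15, a rise of 2.41 on 1 of 7 probe sets whose mean was 0.36. TTLL9, of the same family, rose by 1.58, and its 3 probe sets averaged 0.68. TTLL12, also of this family, had a difference of -1.73, and HDAC6, a tubulin deacetylase, one of -1.19, with another of its 3 probe sets higher by 2-fold or more. Of the 4 MARK kinases, which phosphorylate MAP4 and its relatives and so loosen them from microtubules, limma called 0 (0 at an unadjusted p under 0.05, 1 with the prior from differing probe sets). MARK3, the most intense, was at 8.67 and 8.57 in SupB15-MR and 8.53 in SupB15. MARK2, named after its values had been seen, was at 5.62 and 5.17 in SupB15-MR and 7.08 in SupB15. That difference of -1.68 was not called, and the other of its 2 probe sets was at 0.40.

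Of 6 genes of vincristine export and clearance limma called 0 (3 at an unadjusted p under 0.05, 1 with the prior from differing probe sets). ABCC1, an export pump that carries vincristine, was at 10.43 and 10.92 in SupB15-MR and 7.82 in SupB15. Both SupB15-MR arrays lay above SupB15, by 2.60 and 3.10, a gap of 2-fold or more that its other probe set also showed. The mean difference was 2.85 with a standard error of 0.374; limma did not call it (adjusted p = 0.0799) and called it with each array centred on its median (adjusted p = 0.0368 from limma). ABCB1, the P-glycoprotein pump, was at 3.42 and 3.77 in SupB15-MR and 3.42 in SupB15, by the low-value threshold.

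**Figure D4:**
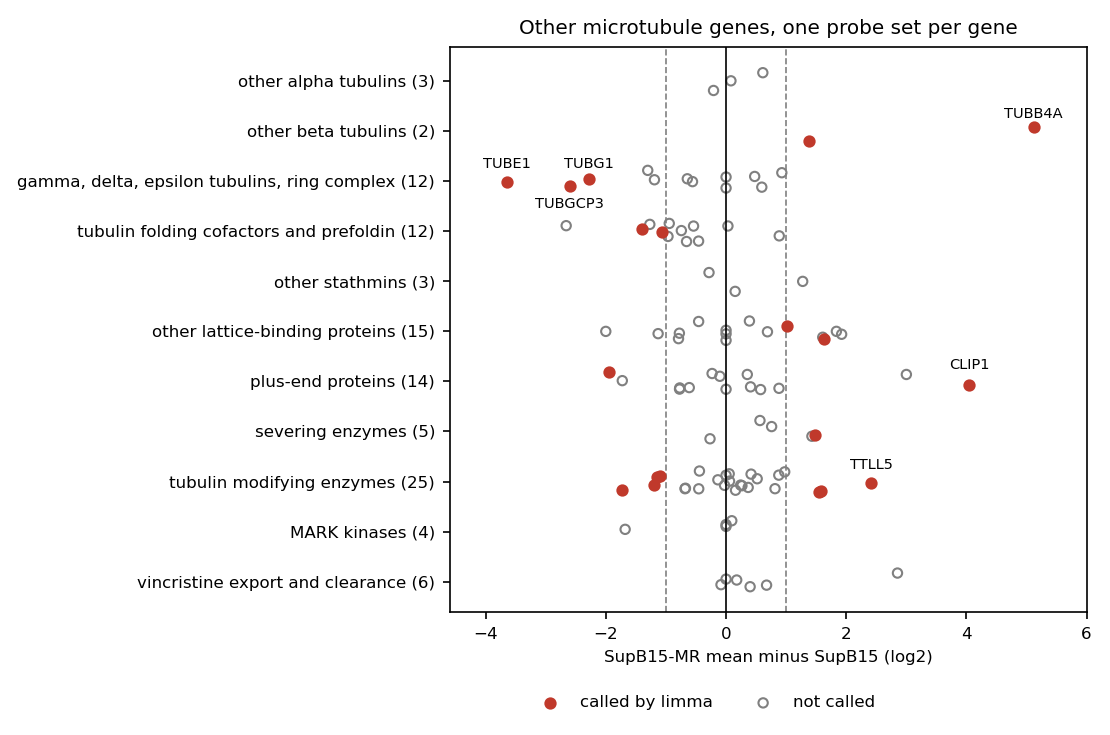
SupB15-MR mean minus SupB15 (log2) for the most intense probe set of each tested gene in 11 lists (number tested in brackets), filled where called by limma and open where not, with dashed lines at 2-fold; the vertical scatter within a list has no meaning. TUBB4A lies farthest to the right at 5.12, and TUBE1 farthest to the left at -3.64.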

How the data were processed

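Gene expression was measured on Affymetrix HG133plus2 arrays of SupB15-MR (2 arrays) and SupB15 (1 array). The authors labelled total RNA with the NuGEN Ovation system and deposited RMA log2 values; the genome build is not given in the sources used here. RMA estimates probe effects over few arrays, which can make array summaries equal; this was not tested. Of 54675 probe sets, 41097 have 1 gene in the platform annotation, 1801 several and 11777 none. A probe set was left out (8641 were) if no array lifted it above 3.47, the 20th percentile over the whole table.

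Differences were fitted over 46034 probe sets in R 4.3.3 by limma 3.58.1 (1 residual degree of freedom). The same fit was also run on simulated data, whose outcome is not given here and is not used as support for any call. A call required 2-fold and a Benjamini-Hochberg adjusted p up to 0.05. The alternatives were median centring, no filter, a variance prior from probe sets that differ between the SupB15-MR arrays, ANOVA, each SupB15-MR array left out, and other choices of probe set. Named were all members and, per list, up to 2 rises and 2 falls called, or else the most intense gene. Members and lists were chosen with earlier results of these data known. Arrays have no depth; their number limits the precision. Promoters are from RefSeq.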

Additional observations from a re-analysis of the deposited data

How the results depend on the processing

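The number of calls depended on how limma estimated the spread. Of the tested probe sets followed in each alternative, centring each array on its median reversed 3 small differences, none of them called. They were STMN1 on 200783_s_at (0.0846 to -0.107), TUBA1B (0.0813 to -0.110) and MARK3 (0.0953 to -0.0962). TUBB2B, which did not pass the filter, also turned, from 0.0751 to -0.116. Of all probe sets, 10491 were called (6021 higher, 4470 lower). With the variance prior from differing probe sets 16476 were called (9005 higher, 7471 lower), with centring on array medians 14314 (6552 higher, 7762 lower), so that the balance of directions moved with the scaling, and with no filter 9983. The ANOVA, which could be run only on probe sets that differ between the SupB15-MR arrays, called 0 of all probe sets, of members and of lists; at an unadjusted p under 0.05 it passed 8886 of 27745 probe sets, 1 of 13 members and 18 of 67 genes of the lists.

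Of the members, 1 was called (0 higher, 1 lower). Centring called 5 of the 20 kept (2 higher, 3 lower): TUBB2A, TUBA4A, 2 MAP4 probe sets and STMN1. The variance prior from differing probe sets called 6 of the 20 (2 higher, 4 lower), with TUBB4B added. Of all 46034 kept probe sets, centring called 14314 and that prior 16476, so that the calls rose across the whole array and not only in these genes. Without SupB15-MR replicate 1 or 2 the number at least 2-fold apart was 7 each time, against 6, and no test was possible, since no residual degree of freedom is left. The median difference of 0.157 was -0.0342 with centring, 0.0846 with no filter, -0.0853 with the mean over the probe sets of each gene and -0.0880 with the probe set highest in SupB15, and 0.12 to 0.20 with a SupB15-MR array left out.

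In the lists, 9 genes were called higher and 10 lower. These were 14 and 19 with centring, 16 and 18 with the prior from differing probe sets, and 4 and 14 with the probe set highest in SupB15. Over all probe sets, calls also rose with centring and with that prior, as given above. At least 2-fold apart were 34 genes, 35 with either SupB15-MR array left out and 20 by the mean over own probe sets. EML2 was under 2-fold with centring (0.82), and TTLL5 was not called with no filter (adjusted p = 0.0522 from limma). No paired analysis was possible because SupB15 has 1 array and no replicate number.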

Other observations

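Probe sets assigned to a member together with another gene were left out of the counts above. The probe set shared by TUBB2B and TUBB2A (209372_x_at) was at 7.52 in both SupB15-MR arrays and 7.51 in SupB15, whereas the probe set of TUBB2A alone differed by 1.34. The probe set shared by MIR3917 and STMN1 (217714_x_at) was at 8.30 and 8.44 in SupB15-MR and 7.18 in SupB15, a difference of 1.19, opposite in direction to the STMN1 probe set that was called.

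In the list of tubulin modifying enzymes, 3 further genes passed the test and were named after their values had been seen. TTL, which adds back the C-terminal tyrosine of alpha tubulin, rose by 1.55, with its 4 probe sets running between -0.76 and 1.55. VASH2, a tubulin carboxypeptidase that removes this tyrosine, had a difference of -1.09, and all 3 of its probe sets were lower (-3.48 to -0.40). TPGS1, a subunit of a polyglutamylase complex, had a difference of -1.15 on its most intense probe set and 0 on the other.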
